A study of Homo sapiens with 24 samples.

Results

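The IL-6, IL-10 and STAT3 loop was followed here through 10 genes chosen by name: the cytokine genes IL6 and IL10, the receptor genes IL10RA, IL10RB and IL6ST, the kinase genes JAK1 and TYK2, the transcription factor gene STAT3, and the feedback inhibitor genes SOCS3 and SOCS1. All 10 were among the 21831 genes of the deposited tables, and all 10 were among the 13419 that passed the filter on low counts. The RNA came from HBL-1 cells, a line grown from a human diffuse large B-cell lymphoma of the activated B-cell-like kind, so the groups model the tumour cells of 1 line without other cells of a lymph node. Treated cultures received dimethyl fumarate (DMF) at 20 µM with DMSO as the solvent, control cultures received DMSO, and both were taken after 6, 12, 24 or 48 h. Every culture was grown with 20% fetal calf serum, antibiotics and Plasmocin. The 8 groups held 3 libraries each, 24 in all. DMF is an electrophilic ester that reacts with cysteine residues, and the study's title names NF-kB and STAT3 signalling as its subject.

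In activated B-cell-like lymphoma, chronic signalling through the B cell receptor and MYD88 activates NF-kB, which induces the genes of IL-6 and IL-10. Secreted IL-10 binds the receptor chains IL10RA and IL10RB, and IL-6 acts through its own receptor together with gp130, the product of IL6ST. Both receptors use the kinases JAK1 and TYK2 to phosphorylate STAT3, which enters the nucleus and induces its targets, among them SOCS3. SOCS3 binds gp130 and JAK kinases and limits signals through gp130, and SOCS1 inhibits JAK kinases directly. These data measure messenger RNA only, so neither secreted cytokine nor phosphorylated STAT3 was observed.

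The called differences of over 2-fold between DMF and control were all in cytokine and SOCS genes of the loop. SOCS3 was lower with DMF at all 4 times, and its deficit reached 6.82-fold at 48 h. IL10 was 1.68-fold higher with DMF at 6 h and 3.20-fold lower at 48 h, by which time its level in control cultures had risen 3.92-fold from that at 6 h. SOCS1 was 2.83-fold higher at 6 h, and at 48 h its log2 fold change was -0.04 ± 0.16 (adjusted p = 0.97 by edgeR's quasi-likelihood test). STAT3 itself was not called at any time in the fit of all 24 libraries. In a fit of 22, without 2 departing libraries of 12 h described below, it was called lower with DMF at 24 and 48 h. Its log2 fold changes there were -0.45 and -0.19 (adjusted p = 5.1e-10 and 2e-04 by edgeR). That fit called 27.9% and 30.9% of all genes lower at these times.

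The sequences printed here show the starts of the cytokine and SOCS genes, on which the results turn: the 250 bases before a RefSeq start site of IL10, IL6, SOCS1 and SOCS3, read 5′ to 3′ on the gene's strand (RefSeq, GRCh38.p14). Capitals mark matches to 4 motifs searched on both strands: TTCNNNGAA (bound by STAT proteins), the kB motif (bound by NF-kB), TGACNNNGC (the core of the antioxidant response element) and TGANTCA (bound by AP-1), of which the last 2 can overlap. Lower case throughout means that none of these letters occurred.
IL10, chr1:206772495-206772744, minus strand: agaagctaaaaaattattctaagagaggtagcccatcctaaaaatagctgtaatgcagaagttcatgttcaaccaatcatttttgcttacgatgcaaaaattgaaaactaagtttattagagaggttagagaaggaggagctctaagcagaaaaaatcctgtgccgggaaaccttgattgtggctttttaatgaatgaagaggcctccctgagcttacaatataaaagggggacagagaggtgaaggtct
IL6, chr7:22726950-22727199, plus strand: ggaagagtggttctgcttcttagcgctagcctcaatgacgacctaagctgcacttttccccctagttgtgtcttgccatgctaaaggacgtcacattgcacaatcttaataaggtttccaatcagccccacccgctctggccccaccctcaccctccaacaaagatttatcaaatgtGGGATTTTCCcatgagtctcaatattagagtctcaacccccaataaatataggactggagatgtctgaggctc
SOCS1, chr16:11256205-11256454, minus strand: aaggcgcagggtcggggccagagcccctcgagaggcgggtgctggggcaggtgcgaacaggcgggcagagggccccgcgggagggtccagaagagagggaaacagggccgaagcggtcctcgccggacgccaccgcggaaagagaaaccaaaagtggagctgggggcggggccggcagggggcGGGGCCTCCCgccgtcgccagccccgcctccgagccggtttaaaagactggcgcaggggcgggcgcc
SOCS3, chr17:78360926-78361175, minus strand: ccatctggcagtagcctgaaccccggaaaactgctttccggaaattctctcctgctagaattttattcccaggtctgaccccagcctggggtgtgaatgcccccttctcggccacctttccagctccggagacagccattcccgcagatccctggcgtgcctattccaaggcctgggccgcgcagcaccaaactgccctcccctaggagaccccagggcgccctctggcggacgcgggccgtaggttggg

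The IL6 window held GGGATTTTCC at positions -73 to -64 from the start site, and the SOCS1 window held GGGGCCTCCC at -67 to -58, both matches to the kB motif. This motif occurred in 9.96% of the 35116 windows of this length in the RefSeq table. Among the members it also occurred in the entry of IL6ST, not printed here (GGAGCGCCCC at -53 to -44). The IL10 and SOCS3 windows held none of the 4 motifs. The SOCS3 start shown lies 848 bases upstream of the 5′ end of the gene in GENCODE v29, so the window is not that of the GENCODE start. All 10 genes had an entry, 15 in all, and TTCNNNGAA, found in 6.57% of all windows, occurred in none of the 15. TGACNNNGC, found in 10.9% of all windows, occurred in 1 entry each of IL10RA, IL10RB and JAK1. TGANTCA, found in 6.57%, occurred in IL10RA and in another entry of IL10. Other entries also lie away from the GENCODE 5′ end of their gene. The other SOCS3 entry starts 410 bases downstream of it, the IL10RA entry 3597 bases downstream and 1 JAK1 entry 101242 bases upstream. The absence of a motif from these windows therefore says nothing about the GENCODE starts. A match is a run of letters and not a measured binding site.

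In GENCODE v29 (GRCh38), IL10 spans chromosome 1, 206767602 to 206772494, and IL6 chromosome 7, 22725884 to 22732002. SOCS3 spans chromosome 17, 78356778 to 78360077, STAT3 the same chromosome from 42313324 to 42388568, and SOCS1 chromosome 16, 11254405 to 11256200. The strand used in counting is not given in the sources used here. SOCS1 lies inside the span of RMI2 on the opposite strand, with 0 bases of exon in common. STEAP1B shares 46 bases of exon with IL6 from the opposite strand, an antisense RNA gene shares 428, another shares 797 with IL6ST, and a read-through transcript model shares 1732 with IL10RB, so reads of these partners may be counted with the member.

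Totals ranged from 2870751 expected counts in replicate 1 of DMF at 48 h to 40906596, and the second-lowest total was 23097873. All 6 B cell markers were found in every library, at lowest values from 8.21 TPM for PAX5 and 16.77 for CD22 to 1353 for CD79A and 1432 for CD79B. The 5 activated B-cell-like markers were found in every library too, with lowest values of 5.02 TPM for ENTPD1 and 19.3 for IRF4. All 5 T cell markers stayed below 1 TPM in every library, CD3G and CD2 at 0. Of the 6 myeloid markers 4 stayed below 1 TPM, with summed levels of 4.28 to 6.76 TPM in control and 3.80 to 13.6 in DMF, the most of it CD68, while CD14, CSF1R and ITGAM stayed at or below 0.37 TPM. Activated B-cell-like markers summed to 691 to 936 TPM in control and 595 to 748 in DMF. Epithelial markers summed to 3.07 to 6.82 and 2.23 to 5.39 TPM, and fibroblast markers, DCN being at 0, to 0.05 to 0.85 and 0.08 to 1.86. The part of these marker levels in the results was not tested.

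Both replicate 3 libraries taken at 12 h departed from the other 22. Weighted by counts, effective transcript length averaged 1902 bases for control and 2121 for DMF, and 2850 to 3157 in the others. Ribosomal protein genes took 24.19% and 19.05% of their counts, and 8% to 12.81% in the others. Members differed in how they read there. In counts per 1000000 after TMM scaling, IL6ST in the control library of replicate 3 stood at 0.166 of the mean of replicates 1 and 2. JAK1 stood at 0.346, STAT3 at 0.382 and IL10RA at 0.485, while TYK2 stood at 1.04 and IL10RB at 1.24. In TPM these last 2 were low there as well. TYK2 read 36.73 TPM in replicate 3 against 67.78 and 66.99 in replicates 1 and 2, and IL10RB 15.49 against 36.67 and 34.06. Median effective lengths were 7294 bases for IL6ST, 4853 for JAK1, 4098 for STAT3, 3391 for IL10RA, 4059 for TYK2 and 1697 for IL10RB. The libraries were kept, but calls are also given for a fit of the other 22 libraries, in which the common dispersion was 0.00212 in place of 0.0521. The labels do not say that replicates are separate cultures, so p-values cover only the spread among these libraries, and that spread may be technical.

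In edgeR's quasi-likelihood test, with p-values adjusted over all genes after Benjamini and Hochberg, 2 members were called higher and 4 lower with DMF at 6 h, where 5.03% of all genes were called higher and 5.59% lower. At 12 h it was 1 higher and 2 lower (7.37% and 9.95% of all genes), at 24 h 1 higher and 4 lower (7.81% and 6.6%), and at 48 h 3 members were called, all lower (13.3% higher and 12.5% lower). IL6 at 48 h had an unadjusted p of 0.024. In the 22 libraries the members called at the 4 times were 2 higher and 7 lower, 1 and 6, 2 and 8, and 1 and 6. That fit called 23.8% of all genes higher at 6 h, 24.1% at 12 h, 29.5% at 24 h and 33.6% at 48 h, with 23.4%, 23.8%, 27.9% and 30.9% lower. The median log2 fold change of the 10 members was -0.34, -0.11, -0.35 and -0.16 at the 4 times, and that of all genes tested 0, -0.05, 0.01 and 0.02. The 17 calls in all 24 libraries are the filled black points in the plot of effects by time.

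**Figure D1:**
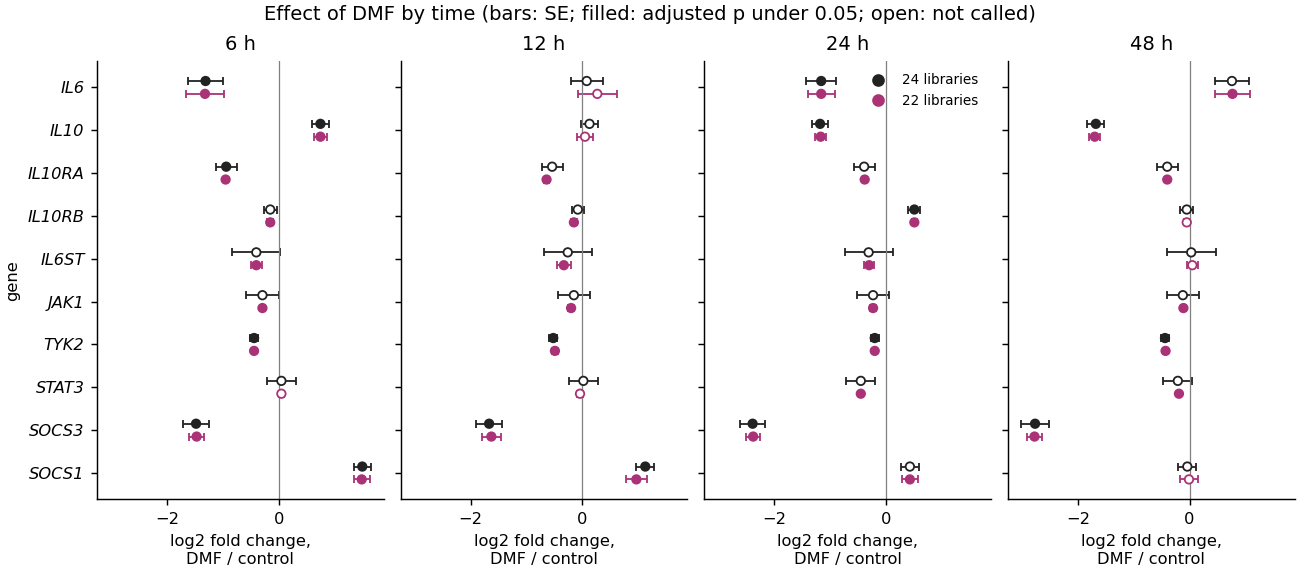
Log2 fold change of DMF over control for the 10 members at 6, 12, 24 and 48 h, with standard errors as bars, from the fits of 24 (black) and 22 (purple) libraries; filled points have an adjusted p under 0.05. SOCS3 lies left of 0 at every time and furthest at 48 h (-2.77), IL10 passes from 0.75 at 6 h to -1.68 at 48 h, and SOCS1 from 1.5 to -0.04.

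IL10 encodes interleukin 10, the cytokine that signals through IL10RA and IL10RB. In CPM (counts per 1000000 after TMM scaling), the control libraries of 6 h read 4.12, 4.2 and 3.80 and the DMF libraries 7.35, 6.13 and 6.89, so that every DMF library lay above every control. The log2 fold change was 0.75 ± 0.15 (SE from the edgeR fit, adjusted p = 0.002). On log2(TPM + 1), limma gave 0.52 and no call (adjusted p = 0.39). At 12 h the groups overlapped, with 4.49, 3.32 and 2.61 CPM in control and 4.38, 3.61 and 3.46 in DMF (0.13 ± 0.15, adjusted p = 0.63 by edgeR). This value was 0.05 in the 22 libraries (adjusted p = 0.79).

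From 24 h on the order was turned. Control libraries of 24 h read 11.1, 10.5 and 10.6 CPM for IL10 and DMF libraries 4.30, 4.67 and 5.24, a 2.26-fold lower level (log2 fold change -1.18 ± 0.14, adjusted p = 1.6e-05 by edgeR). At 48 h control read 16.2, 15.8 and 15.6 CPM and DMF 5.47, 4.98 and 4.64, a 3.20-fold lower level (-1.68 ± 0.15, adjusted p = 1.5e-07). The groups did not overlap at either time. The gap opened as IL10 rose in control, to 2.65-fold of its 6 h level at 24 h (adjusted p = 2.7e-06 by edgeR) and 3.92-fold at 48 h (adjusted p = 4.9e-09), while the DMF group means stood at 6.79, 3.82, 4.74 and 5.03 CPM at the 4 times. Comparisons of control over time and of DMF with control share the control libraries.

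IL6, the gene of interleukin 6, gave few counts, from 4 to 104 in a library, which limits its precision. At 6 h the control libraries read 0.589, 0.891 and 1.42 CPM and the DMF libraries 0.397, 0.385 and 0.389, all below control (log2 fold change -1.31 ± 0.32, adjusted p = 0.01 by edgeR). The call at 6 h rested in part on control replicate 3: without it the value was -0.89 (adjusted p = 0.13). On log2(TPM + 1) limma gave an adjusted p of 0.054. At 12 h the groups overlapped, at 0.669 to 1.16 CPM in control and 0.902 to 1.12 in DMF (0.08 ± 0.29, adjusted p = 0.91).

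The control libraries of 24 h read 3.15, 2.18 and 1.94 CPM of IL6, above all other control libraries, which was 2.49-fold the level of 6 h (adjusted p = 0.0028 by edgeR). DMF libraries of 24 h read 1.10, 1.28 and 0.852 CPM, all below control, a 2.24-fold lower level (log2 fold change -1.16 ± 0.27, adjusted p = 0.0065 by edgeR). Without control replicate 1 of 24 h it was -0.94 (adjusted p = 0.053). At 48 h the order was the other way, with control at 0.719, 0.961 and 0.525 CPM and DMF at 1.22, 1.33 and 1.16, all above control. That difference was 0.76 ± 0.31 and was not called in all 24 libraries (adjusted p = 0.082 by edgeR), but it was in the 22 (0.77, adjusted p = 0.03). DMF replicate 1 of 48 h, the shallowest library, held 4 counts of IL6. STEAP1B, which overlaps IL6, had log2 fold changes of -0.35, -0.74, -0.36 and -1.34 at the 4 times, the last called (adjusted p = 0.0036 by edgeR).

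**Figure D2:**
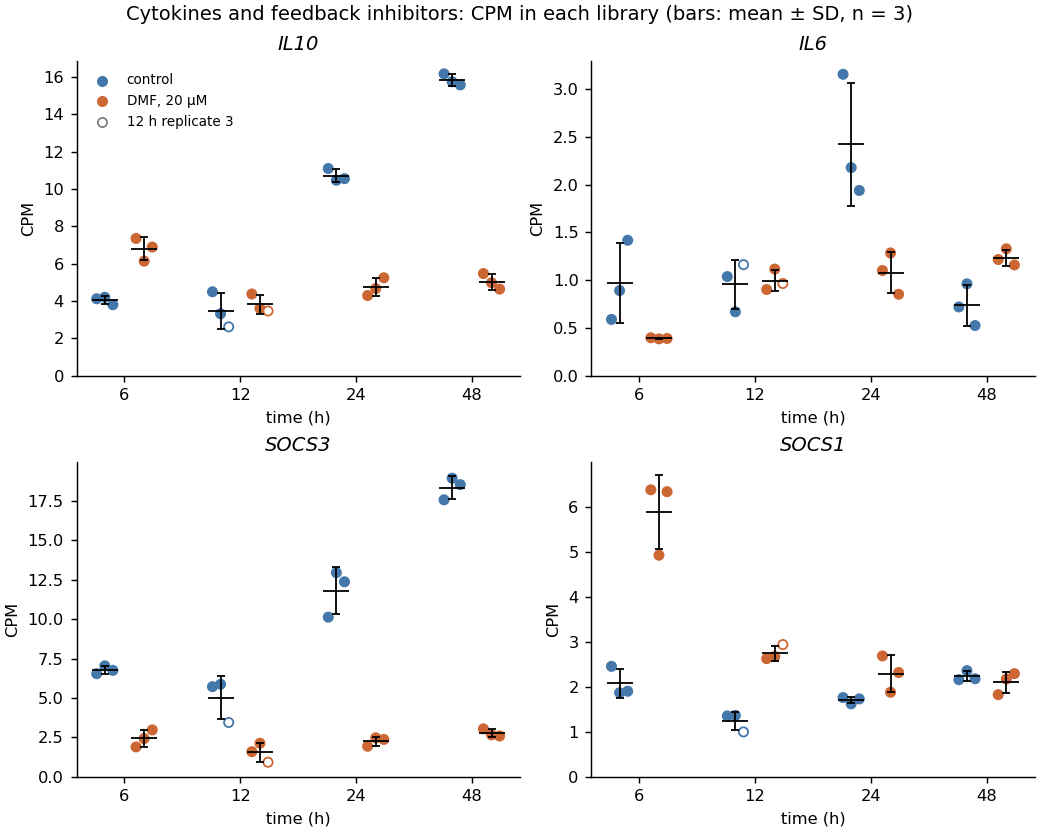
CPM of IL10, IL6, SOCS3 and SOCS1 in each of the 24 libraries by time, with control in blue, DMF in orange, replicate 3 of 12 h as open points, and black bars for mean ± SD (n = 3). IL10 and SOCS3 climb in control from 6 h (means 4.04 and 6.78 CPM) to 48 h (15.8 and 18.4) and stay at or below 5.03 and 2.76 in the DMF means from 12 h on.

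SOCS3, whose protein binds gp130 and the JAK kinases and limits STAT3 signalling through gp130, had no overlap between treatments at any time, DMF always being the lower. At 6 h control libraries read 6.54, 7.04 and 6.75 CPM and DMF libraries 1.89, 2.42 and 2.97 (2.78-fold lower). At 12 h control read 5.72, 5.87 and 3.44 CPM and DMF 1.59, 2.13 and 0.921 (3.19-fold lower). The low value of each group at 12 h is its replicate 3, and in the 22 libraries the log2 fold change was -1.63 in place of -1.67. The tests at 6 and 12 h gave adjusted p of 2e-04 and 5.3e-05 by edgeR. A fit of the 12 h libraries alone, which called 0 genes in all, did not call SOCS3 (-1.69, adjusted p = 0.27), SOCS1 (1.14, adjusted p = 0.22) or TYK2 (-0.53, adjusted p = 0.39).

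At 24 h SOCS3 stood at 10.1, 13 and 12.4 CPM in control and 1.93, 2.47 and 2.37 in DMF, 5.23-fold lower (log2 fold change -2.39 ± 0.23, adjusted p = 9.2e-07 by edgeR). At 48 h it stood at 17.6, 19 and 18.5 CPM in control and 3.04, 2.66 and 2.59 in DMF, 6.82-fold lower (-2.77 ± 0.25, adjusted p = 1e-07). Control cultures had gained SOCS3 by then, 1.74-fold at 24 h over 6 h (adjusted p = 0.014 by edgeR) and 2.71-fold at 48 h (adjusted p = 2.9e-05). In bulk RNA a lower level per cell and fewer cells with the RNA cannot be told apart. The DMF group means were 2.43, 1.55, 2.26 and 2.76 CPM at the 4 times. The gain of SOCS3 at 24 h was not called without control replicate 1 of 6 h (0.78, adjusted p = 0.059).

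SOCS1, a relative of SOCS3 that inhibits JAK kinases directly, was higher with DMF at the early times. At 6 h control libraries read 2.45, 1.87 and 1.90 CPM and DMF libraries 6.38, 4.92 and 6.34, all above control (log2 fold change 1.5 ± 0.15, adjusted p = 2.2e-06 by edgeR). At 12 h control read 1.35, 1.36 and 0.996 CPM and DMF 2.63, 2.67 and 2.94, again without overlap (1.13 ± 0.16, adjusted p = 6.2e-05). The excess was smaller later: 1.76, 1.62 and 1.73 CPM against 2.68, 1.88 and 2.32 at 24 h (0.43 ± 0.16, adjusted p = 0.079, called in the 22 libraries at 0.021), and overlapping groups of 2.16 to 2.36 and 1.82 to 2.29 CPM at 48 h. RMI2, whose span encloses SOCS1 on the other strand, had log2 fold changes of -0.47, -1.28, 0.14 and -0.92 at the 4 times, called lower at 12 and 48 h (adjusted p = 0.0039 and 0.014 by edgeR). SOCS1 was counted with 6 to 228 reads in a library.

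Per length, the order of the 2 inhibitors differed between the treatments in every library. In TPM (a share of transcripts, which divides by effective length), SOCS3 exceeded SOCS1 in 12 of 12 control libraries, and SOCS1 exceeded SOCS3 in 12 of 12 DMF libraries. The ratio of SOCS3 to SOCS1 in control had medians of 1.37, 1.63, 2.76 and 3.14 at 6, 12, 24 and 48 h. In DMF it had medians of 0.180, 0.233, 0.395 and 0.474. The closest control library, at 6 h, had a ratio of 1.03, and the closest DMF library, at 48 h, 0.639. This pattern was singled out after the values were seen and is given without a test.

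**Figure D3:**
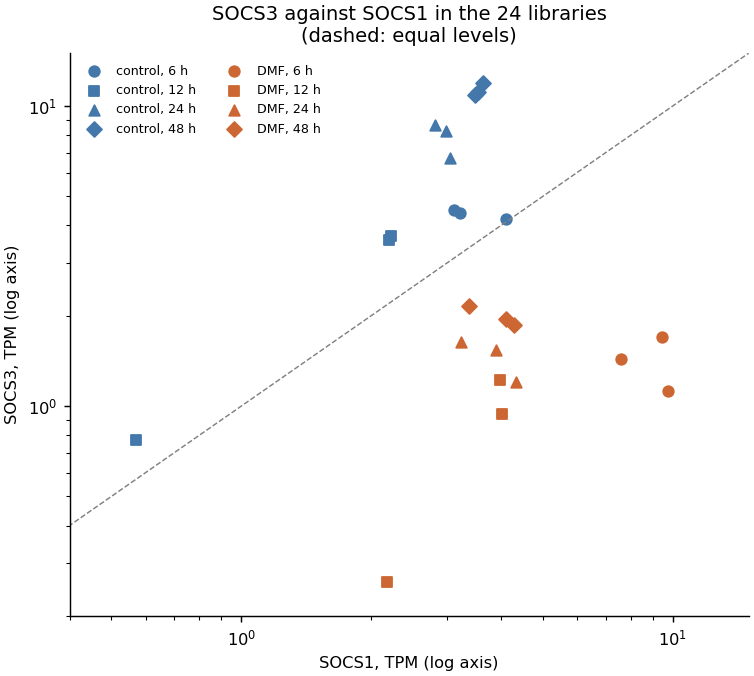
TPM of SOCS3 against SOCS1 in the 24 libraries on log axes, with control in blue, DMF in orange and a symbol for each time; the dashed line marks equal levels. All 12 control libraries lie above the line and all 12 DMF libraries below it, including the replicate 3 libraries of 12 h at the lower left of each group.

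Among the receptors, IL10RA, the ligand-binding chain for IL-10, was the most abundant member per length, with a median of 121 TPM over the control libraries. It was 1.93-fold lower with DMF at 6 h, with 335, 345 and 333 CPM in control and 174, 178 and 174 in DMF (log2 fold change -0.94 ± 0.19, adjusted p = 0.0022 by edgeR). On log2(TPM + 1) limma gave -1.07 and an adjusted p of 0.2. At 24 h control libraries lay at 246 to 247 CPM and DMF libraries at 184 to 193 (-0.39 ± 0.19, adjusted p = 0.2). At 48 h they lay at 232 to 238 and 174 to 184 (-0.40 ± 0.19, adjusted p = 0.13). DMF and control overlapped at neither time, and both differences were called in the 22 libraries (adjusted p = 2e-10 and 8.9e-11). At 12 h the log2 fold change was -0.54 (adjusted p = 0.054), and -0.64 in the 22 libraries (adjusted p = 1.3e-12), where control read 340 and 333 CPM and DMF 216 and 215. Within control, IL10RA was 1.44-fold lower at 48 h than at 6 h (adjusted p = 0.03 by edgeR). That call ended without control replicate 1 or 2 of 6 h, or 1 or 3 of 48 h, with adjusted p of 0.061 to 0.072.

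IL10RB, the accessory IL-10 receptor chain, also serves IL-22 and lambda interferons. Of the 4 times, it was called in all 24 libraries at 24 h, higher with DMF, at 38.1, 42.4 and 39.5 CPM in control and 56.6, 54.5 and 59.3 in DMF (log2 fold change 0.51 ± 0.11, adjusted p = 0.005 by edgeR). Leaving out control replicate 1 or 3 or DMF replicate 1 or 3 of 24 h moved the adjusted p to 0.052 to 0.078, with values of 0.46 to 0.50. On log2(TPM + 1) limma gave 0.45 and an adjusted p of 0.24. At 6 h all DMF libraries lay slightly below control (22 to 23.3 against 25.0 to 25.4 CPM, -0.15 ± 0.12, adjusted p = 0.57, called in the 22 libraries at 0.021). At 48 h the groups overlapped (-0.05 ± 0.12, adjusted p = 0.83). In control cultures IL10RB rose 1.66-fold by 12 h, 1.59-fold by 24 h and 2.04-fold by 48 h over 6 h (adjusted p = 0.00047, 0.00047 and 8.3e-07 by edgeR). The rise at 12 h was not called by limma on log2(TPM + 1) (0.18, adjusted p = 0.49) or in only the groups compared (adjusted p = 0.32).

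IL6ST, which encodes the signalling chain gp130, was scarce in these cells, with a median of 1.88 TPM in control. It read 7.98 to 8.20 CPM in control and 6.03 to 6.27 in DMF at 6 h, and 10.3 to 11.6 and 8.43 to 9.16 at 24 h, without overlap at either time. The log2 fold changes, -0.40 ± 0.43 and -0.31 ± 0.43, were not called in all 24 libraries (adjusted p = 0.75 and 0.74 by edgeR) and were in the 22 (0.002 and 0.0057). The standard error at 6 h was 0.43 with the replicate 3 libraries of 12 h, which read 1.41 and 1.80 CPM, and 0.10 without them. At 48 h the groups overlapped (0.03 ± 0.44). IL6R, the ligand-binding chain for IL-6, is no member and is named after its values were seen. It had log2 fold changes of -0.52, -0.47, -0.15 and 0.23 at the 4 times, none called in all 24 libraries (adjusted p = 0.35, 0.33, 0.82 and 0.65 by edgeR), and it was called in the 22 at 6, 12 and 48 h (3.8e-06, 8.3e-05 and 0.03).

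Of the 2 kinases, TYK2 was lower with DMF at every time and JAK1 was not called in all 24 libraries. TYK2 read 128, 137 and 122 CPM in control and 90.5, 96.9 and 97.8 in DMF at 6 h (1.36-fold lower, adjusted p = 0.00013 by edgeR). At 12 h it read 170, 174 and 179 CPM in control and 117, 127 and 120 in DMF (1.44-fold lower, adjusted p = 1.6e-05), with replicate 3 near its group in CPM. In TPM replicate 3 was the lowest of each group at 12 h, at 36.73 in control and 28.31 in DMF. At 24 h the difference was 1.15-fold (213, 209 and 206 against 174, 187 and 186 CPM, adjusted p = 0.047) and at 48 h 1.35-fold (227, 235 and 232 against 171, 170 and 170 CPM, adjusted p = 5.3e-05). The groups did not overlap at any time. The call at 24 h ended in all but 3 of the 24 fits that left out 1 library, with DESeq2 size factors and with no filter. On log2(TPM + 1), limma gave TYK2 adjusted p of 0.05, 0.52 and 0.4 at 6, 24 and 48 h. In control cultures TYK2 rose 1.35-fold, 1.62-fold and 1.79-fold at 12, 24 and 48 h over 6 h (adjusted p = 0.00033, 8.1e-07 and 8.3e-09 by edgeR). The rise at 12 h was not called by limma (0.13, adjusted p = 0.55) or in only the groups compared (adjusted p = 0.44).

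JAK1, the kinase shared by both receptors, stood lower in every DMF library at 6 h (118 to 122 CPM against 142 to 150) and at 24 h (127 to 132 against 152 to 154). The log2 fold changes were -0.29 ± 0.29 and -0.23 ± 0.29 in all 24 libraries (adjusted p = 0.71 and 0.7 by edgeR), and both were called in the 22 (9.7e-06 and 0.00011). At 48 h the groups overlapped, with 146 to 173 CPM in control and 149 to 150 in DMF (-0.12 ± 0.29, adjusted p = 0.83). In the 22 libraries the values at 12 and 48 h were -0.20 (adjusted p = 0.0045) and -0.11 (adjusted p = 0.037).

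STAT3, the factor on which both cytokines converge, was among the abundant members. At 6 h control libraries read 175, 173 and 175 CPM and DMF libraries 181, 180 and 179 (log2 fold change 0.05 ± 0.26, adjusted p = 0.97 by edgeR). At 12 h control read 159, 157 and 60.3 CPM and DMF 156, 151 and 73.2, the last of each being replicate 3. At 24 h control read 211, 211 and 213 CPM and DMF 149, 165 and 151, all lower (-0.45 ± 0.26, adjusted p = 0.31). At 48 h control read 226, 214 and 225 CPM and DMF 185, 199 and 192, all lower (-0.21 ± 0.26, adjusted p = 0.64). In the 22 libraries the value at 24 h was called at 5.1e-10 and that at 48 h at 2e-04, while those at 6 and 12 h were not (adjusted p = 0.36 and 0.57).

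**Figure D4:**
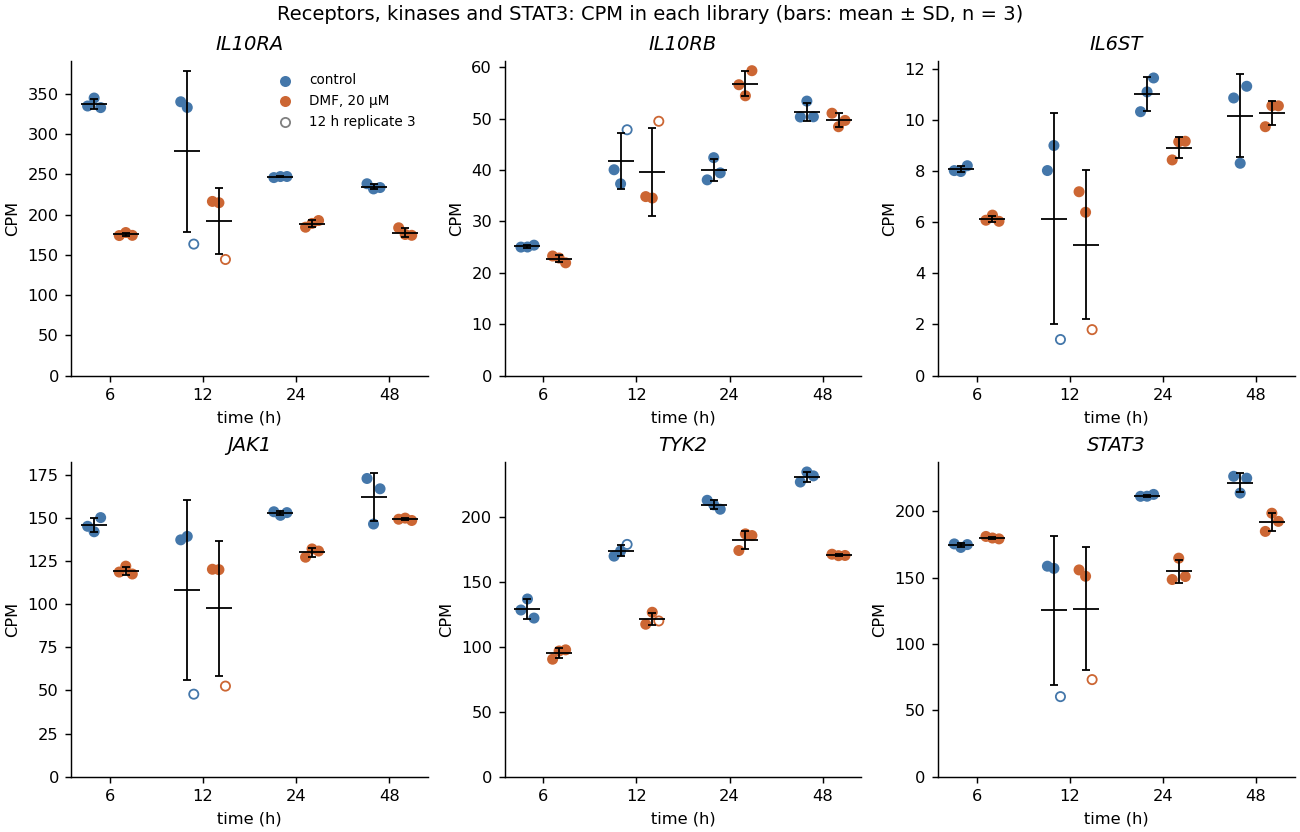
CPM of IL10RA, IL10RB, IL6ST, JAK1, TYK2 and STAT3 in each of the 24 libraries by time, drawn as in the plot of cytokines and inhibitors. The open points (replicate 3 of 12 h) fall far below their groups for IL10RA, IL6ST, JAK1 and STAT3 but not for TYK2, and DMF lies below control for TYK2 at all 4 times.

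Ranked by median TPM over the 12 control libraries, the members ran from IL10RA (121), TYK2 (76.2), STAT3 (70.2), JAK1 (48.8) and IL10RB (36.8) down to IL10 (8.92), SOCS3 (5.62), SOCS1 (3.08), IL6ST (1.88) and IL6 (1.27). The ranges of neighbours overlapped in part: without replicate 3 of 12 h the lowest control values were 48.7 TPM for TYK2, 59.3 for STAT3 and 42.8 for JAK1, and the highest 91.6, 88.2 and 55.6. IL10RA, TYK2, STAT3, JAK1 and IL10RB stood above all cytokine and SOCS genes in those control libraries (lowest IL10RB at 23.4 TPM, highest IL10 at 18.5). The low ranks also overlapped, SOCS1 at 2.2 to 4.10 TPM and SOCS3 at 3.59 to 11.9, IL6ST at 1.53 to 2.57 and IL6 at 0.71 to 4.69. In the DMF libraries the median of SOCS3 was 1.49 TPM, below those of SOCS1 (4.07) and IL6ST (1.60).

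The effect of DMF differed between times for 5 of the 10 members in a joint test of the 3 interaction terms, where 15% of all genes were called. These were IL10 (adjusted p = 7.2e-07 by edgeR), SOCS1 (0.00035), IL6 (0.0042), IL10RB (0.024) and SOCS3 (0.024). TYK2 (0.083), IL10RA (0.41), STAT3 (0.81), IL6ST (0.98) and JAK1 (0.99) were not called. In the 22 libraries, where 69.1% of all genes were called, all members but JAK1 (0.11) were. Between neighbouring times, edgeR called 0 members for 12 against 6 h (0.566% of all genes, with IL6 and IL10 at an unadjusted p under 0.05 and 0 called by DESeq2), 3 for 24 against 12 h (5.54%) and 1 for 48 against 24 h (3.12%). Between 6 and 48 h it called 4 (12.3%). Of the 3 called for 24 against 12 h, IL10RB and TYK2 were called in only 2 of the 24 fits that left out 1 library.

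Control cultures drifted as well, and this sets the level that DMF is compared with. At 24 h 5 members were called in all 24 libraries, all higher than at 6 h (IL6, IL10, IL10RB, TYK2 and SOCS3). There 9.29% of all genes were called higher and 7.53% lower. The 22 libraries also called IL10RA lower at 24 h (log2 fold change -0.45, adjusted p = 9.8e-12 by edgeR). They called IL6ST (0.45, 0.00025) and STAT3 (0.28, 1.6e-06) higher. Of 13606 genes, that fit called 3923 higher and 3764 lower. At 48 h 4 were higher in all 24 libraries (IL10, IL10RB, TYK2 and SOCS3) and 1 lower (IL10RA), where 21.6% and 20.4% of all genes were called. The 22 libraries also called IL6ST (0.34), JAK1 (0.16) and STAT3 (0.35) higher at 48 h. Their adjusted p were 0.0024, 0.0028 and 1.1e-08 by edgeR, where 5194 of 13606 genes were called higher. At 12 h IL10RB and TYK2 were higher and SOCS1 lower in all 24 libraries, where the shares were 12% and 6.84%. These 3 calls ended in a fit of only the groups compared, which gave SOCS1 an adjusted p of 0.43. The 22 libraries also called STAT3 lower at 12 h (-0.15, adjusted p = 0.0092 by edgeR), where 2522 of 13606 genes were called lower.

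The other genes of the pathway were taken from lists written with earlier results of these data known. Of 27 further ligands and receptors of the gp130 and IL-10 families, 13 passed the filter on low counts. Beside each count of a list stand the shares called over all genes, since a count near that share is no result about the list. At 48 h 4 of the 13 were called higher and 2 lower, where 13.3% of all genes were higher and 12.5% lower. The 22 libraries gave 7 higher and 3 lower (33.6% and 30.9% of all genes), and at 24 h 6 higher and 2 lower (29.5% and 27.9%). At 48 h CLCF1, a cytokine of the gp130 family, was 8.56-fold higher with DMF (log2 fold change 3.10 ± 0.26, adjusted p = 4.5e-08 by edgeR). The gap opened as CLCF1 fell in control, with means of 1.56, 0.649, 0.413 and 0.135 CPM at the 4 times. The DMF means were 1.39, 1.17, 1.1 and 1.20 CPM. EBI3, a subunit of IL-27 and IL-35, was lower with DMF at 48 h (log2 fold change -3.05, adjusted p = 2.3e-08 by edgeR). Its means there were 125 CPM in control and 14.9 in DMF. IL21R, the receptor of the STAT3-activating cytokine IL-21, was also lower at 48 h (-0.61, adjusted p = 3.5e-06). The median log2 fold changes of the 13 were -0.17, 0.05, -0.05 and 0.23 at the 4 times.

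Of the 8 other JAK and STAT genes, 3, 3, 2 and 4 were called lower at 6, 12, 24 and 48 h, where 5.59%, 9.95%, 6.6% and 12.5% of all genes were, with median log2 fold changes of -0.59, -0.85, -0.26 and -0.32. JAK3, the kinase of the common gamma chain, was lower with DMF at every time. At 6 h it stood at 38.9 CPM in control and 20.0 in DMF, and at 48 h at 60.3 and 23.1 (log2 fold change -1.38 ± 0.09, adjusted p = 3.3e-09 by edgeR). STAT5A was lower at 12, 24 and 48 h, by 1.5 on the log2 scale at 24 h (26.2 CPM in control and 9.27 in DMF, adjusted p = 1.2e-07). STAT6, the factor of interleukin 4, was furthest below control at 12 h (269 CPM in control and 131 in DMF, -1.04 ± 0.07, adjusted p = 7.5e-09). In the 22 libraries 7, 7, 5 and 5 of the 8 were called lower at the 4 times (23.4%, 23.8%, 27.9% and 30.9% of all genes) and 1 higher at 24 h.

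Of 13 other negative regulators tested, 1 was called higher and 2 lower at 24 h (7.81% and 6.6% of all genes), and 3 lower at 48 h (12.5%). At 6 and 12 h calls were made in the 22 libraries only, 3 higher and 5 lower at 6 h and 4 higher and 3 lower at 12 h. That fit called 2 higher and 6 lower at 24 h, then 2 higher and 5 lower at 48 h, where it called 23.8% to 33.6% of all genes higher and 23.4% to 30.9% lower over the 4 times. Medians were -0.08, 0.04, -0.17 and -0.12 at the 4 times. PTPN2, a phosphatase that acts on JAK1 and STAT3, was lower with DMF by 0.70 on the log2 scale at 48 h (21.8 CPM in control and 13.5 in DMF, adjusted p = 1.6e-05 by edgeR). CISH, a SOCS family member and target of STAT5, was lower by 1.63 at 48 h, at low levels (0.540 CPM in control and 0.124 in DMF, adjusted p = 0.011). PTPN6, the phosphatase SHP-1, was higher at 24 h (log2 fold change 0.54, adjusted p = 0.02).

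Of 19 STAT3 targets tested, 1 was called lower at 6 h, 4 at 12 h, 7 at 24 h and 10 at 48 h, where the shares of all genes were 5.59%, 9.95%, 6.6% and 12.5%. Called higher were 4, 1, 1 and 1, where the shares were 5.03%, 7.37%, 7.81% and 13.3%. Without replicate 3 of 12 h, 4, 9, 13 and 14 were lower (23.4%, 23.8%, 27.9% and 30.9% of all genes) and 6, 4, 1 and 1 higher (23.8%, 24.1%, 29.5% and 33.6%). BATF and CCND2 of this list are also among the markers of the activated B-cell-like type. The median log2 fold changes of the 19 targets were 0, -0.34, -0.51 and -0.72 at the 4 times. BCL2L1, the survival gene of BCL-XL, was lower at all 4 times, from -0.46 at 6 h (adjusted p = 0.0035 by edgeR) to -1.45 ± 0.10 at 48 h (163 to 59.5 CPM, adjusted p = 4.3e-09). MYC, the growth regulator, stood at 255 and 260 CPM at 6 h and at 315 and 155 at 48 h (log2 fold change -1.02 ± 0.07, adjusted p = 6.1e-09). PIM2, a survival kinase, was lower with DMF by 0.98 at 48 h (893 CPM in control and 452 in DMF, adjusted p = 2.8e-08 by edgeR). At 6 h it stood at 479 CPM in control and 528 in DMF.

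Further targets are named after their values were seen. PIM1, another survival kinase, was lower with DMF by 1.52 on the log2 scale at 48 h (3120 CPM in control and 1090 in DMF, adjusted p = 2.1e-07 by edgeR). BCL3, an atypical inhibitor of NF-kB, was lower by 1.51 at 48 h (adjusted p = 1.5e-05). PRDM1, FOS and VEGFA were higher at 6 h (1.27, 1.40 and 1.11, adjusted p = 0.0036, 0.038 and 0.0024 by edgeR) and were not called from 12 h on in all 24 libraries. In the 22 libraries PRDM1 and VEGFA were also called higher at 12 h (0.70 and 0.37, adjusted p = 0.0014 and 0.0015 by edgeR). VEGFA was called lower there at 24 h (-0.17, adjusted p = 0.04). LGALS3, which encodes galectin 3, was higher with DMF at every time, by 1.87 ± 0.23 at 48 h (adjusted p = 5.3e-06 by edgeR). Its means were 40.4 CPM at 6 h and 16.5 at 48 h in control, and 67.5 and 60 in DMF. Many of these targets also answer to NF-kB or other factors, so the list does not isolate STAT3.

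**Figure D5:**
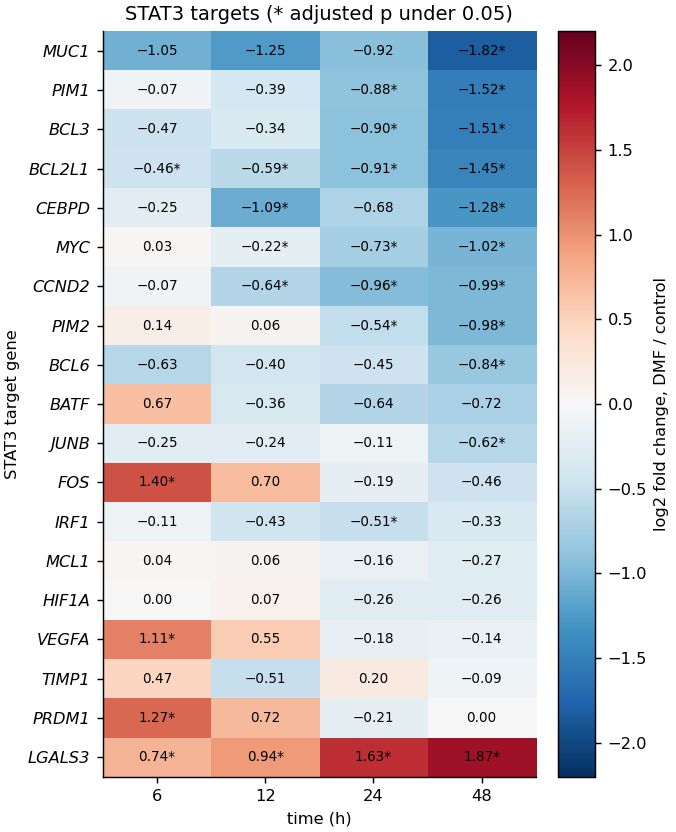
Log2 fold change of DMF over control (colour and number) for the 19 STAT3 targets tested, by time, from the fit of all 24 libraries; asterisks mark an adjusted p under 0.05, and genes are ordered by their value at 48 h. Asterisks in blue cells rise from 1 at 6 h to 10 at 48 h, and LGALS3 carries a red cell with an asterisk at all 4 times.

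Among 12 genes that carry signals to IL6 and IL10 in this type of lymphoma, calls at 6 h were made in the 22 libraries only (3 higher and 4 lower). In all 24 libraries 1 was higher and 2 lower at 12 h (7.37% and 9.95% of all genes), 1 was lower at 24 h (6.6%) and 3 were lower at 48 h (12.5%). Calls in the 22 libraries were 2 higher and 4 lower at 12 h, 1 and 6 at 24 h, then 2 and 4 at 48 h, against the shares of that fit given above. The log2 fold changes had medians of -0.10, -0.08, -0.13 and 0 at the 4 times. BCL10, an adaptor that carries B cell receptor signals to NF-kB, was lower with DMF by 0.35 at 48 h (25.1 CPM in control and 19.6 in DMF, adjusted p = 0.0037 by edgeR). NFKB1, an NF-kB subunit gene, named after its values were seen, was also lower at 48 h (-0.78, adjusted p = 0.016). RELA, an NF-kB subunit, was higher by 0.25 at 12 h (adjusted p = 0.023). NFKBIZ, a nuclear NF-kB cofactor needed for IL6 and IL10 expression, named after its values were seen, had log2 fold changes of -0.76, -1.01, -0.68 and -0.84. It was called at 12 h in all 24 libraries (adjusted p = 0.045) and at every time in the 22 (4.6e-13, 2.1e-14, 1.2e-12 and 2e-14).

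The genes most like a member in pattern were found by Pearson's r of log2 CPM over the 22 libraries, among 9677 genes of at least 5 CPM. For SOCS3 they included WDR11 (0.974) and CDCA7L (0.968). For IL10 they were STC2 (0.943), ZGRF1 (0.921) and SLC43A1 (0.915), and for STAT3 SCD (0.947), TTC3 (0.93) and AGTPBP1 (0.924). These correlations describe libraries that share treatment, time and depth, and none of these genes is in the lists above.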

How the data were processed

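RNA was measured in 24 libraries of HBL-1 cells, 3 in each of 8 groups. Per the submitters' processing notes, HISAT2, HISAT, RSEM and the build GRCh38.p12 were used, and versions and the strand setting are not given in the sources used here. The authors deposited RSEM expected counts for 21831 genes, with TPM, FPKM and gene lengths, which the deposited tables give beside them. FPKM values of the authors were used for no result. Of a library's expected counts above 0, 6.16% to 11.53% were not whole, and all were rounded.

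Counts were filtered (filterByExpr), scaled by TMM and tested with edgeR 4.0.16 (R 4.3.3) by quasi-likelihood over all 8 groups (16 residual degrees of freedom). Adjustment (Benjamini-Hochberg) ran over all 13419 genes that passed, and a gene with an adjusted p under 0.05 was called. Totals of 2870751 to 40906596 per library set the precision of low genes. Alternatives were 22 libraries (13606 genes), DESeq2 1.42.0, DESeq2 size factors, no filter, a replicate block, only the groups compared, limma 3.58.1 on log2(TPM + 1) for genes of at least 1 TPM in 3 libraries, and each library left out.

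The members and lists were chosen with earlier results of these data known. Named were all members, the 3 list genes with the smallest p at any time among those called, and for IL10, SOCS3 and STAT3 the 3 genes of highest r. Other genes were named after their values were seen, and 2 genes that this rule picks are not reported here.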

Additional observations from a re-analysis of the deposited data

Results flagged for a closer look

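The effect of DMF differed between pairs of times for 6 members, by edgeR's quasi-likelihood test of the difference itself with Benjamini-Hochberg adjustment. From 6 to 48 h, 4 members differed (12.3% of all genes were called): IL10 by -2.43 ± 0.21 on the log2 scale (adjusted p = 5.4e-07), SOCS1 by -1.54 ± 0.23 (0.00012), SOCS3 by -1.29 ± 0.33 (0.012) and IL6 by 2.07 ± 0.44 (0.0039). The effects behind these were 0.75 at 6 h and -1.68 at 48 h for IL10, 1.5 and -0.04 for SOCS1, -1.48 and -2.77 for SOCS3, and -1.31 and 0.76 for IL6. The call of SOCS3 ended by limma on log2(TPM + 1) (-0.88, adjusted p = 0.13).

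From 12 to 24 h, 3 members differed (5.54% of all genes): IL10 by -1.31 ± 0.21 (adjusted p = 0.0011), IL10RB by 0.58 ± 0.16 (0.041) and TYK2 by 0.32 ± 0.09 (0.048). The calls of IL10RB and TYK2 each held in only 2 of the 24 fits that left out 1 library. Both ended with DESeq2 size factors (adjusted p = 0.11 and 0.082), with no filter (0.051 and 0.13), in a fit of only the groups compared (0.39 and 0.42) and by limma (0.63 and 0.88), and that of IL10RB also by DESeq2 (0.051). The call of IL10 held in 24 of 24 such fits and ended by limma and in only the groups compared (adjusted p = 0.1 in both). From 24 to 48 h, IL6 differed by 1.92 ± 0.41 (adjusted p = 0.013, where 3.12% of all genes were called). Without DMF replicate 2 of 48 h it was not called (1.84, adjusted p = 0.057). The differences of IL6 rest on 4 to 104 counts per library.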

How the results depend on the processing

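Of the 17 calls of DMF against control, all kept their direction under every alternative run, and all kept their call in the 22 libraries, under DESeq2 and under the replicate block. Limma lost 7 of the 17 (IL6, IL10, IL10RA and TYK2 at 6 h, IL10RB and TYK2 at 24 h, TYK2 at 48 h) and only the groups compared lost 3 (TYK2, SOCS3 and SOCS1 at 12 h), while DESeq2 size factors and no filter each lost 1 (TYK2 at 24 h). Limma was run on all 24 libraries and not on the 22, so its spread includes the replicate 3 libraries of 12 h. For IL10RA the control library of these read 27.47 TPM, against 156.03 and 151.98 in replicates 1 and 2. The fit of 22 libraries made 16 further calls. Counts of members called that moved by over 1.5 times were these. The 22 libraries gave 7, 10 and 7 at 12, 24 and 48 h (with the block 7, 10 and 7), 9 in the joint test (9), 3, 7, 6 and 8 for the differences 12 minus 6, 24 minus 12, 48 minus 24 and 48 minus 6 h (3, 7, 7 and 8), and 8 and 8 for control at 24 and 48 h (8 and 8). Only the groups compared gave 0, 10 and 6 at 12, 24 and 48 h, 0, 5 and 7 for 24 minus 12, 48 minus 24 and 48 minus 6 h, and 0 and 8 for control at 12 and 24 h. Limma on log2(TPM + 1) gave 2 at 6 h, 3 at 24 h, 2 in the joint test, 0 for 24 minus 12 h and 1 for control at 12 h. For 24 minus 12 h, DESeq2 size factors gave 1 and no filter 1, and DESeq2 gave 2 for 48 minus 24 h. Over all genes, calls in the 22 libraries numbered 6421, 6515, 7805 and 8775 at the 4 times, against 1425, 2324, 1933 and 3465. Of the 13606 genes tested in the 22 libraries, 9408 were called in the joint test and 1999, 5380, 5605 and 6929 for the differences in the order above. For control, 7687 were called at 24 h and 10207 at 48 h. Shares over all genes are not given here for the other alternatives, so their counts are no result about the members. For 12 minus 6 h, edgeR and DESeq2 called 0 members in all 24 libraries, and IL6 and IL10 had an unadjusted p under 0.05 (0.0049 and 0.0083). Leaving out each library in turn gave 5 to 6, 3 to 4, 2 to 7 and 3 to 4 members at the 4 times, 4 to 7 in the joint test, 0 to 1, 1 to 4, 0 to 2 and 4 to 5 for the differences in that order, and 3 to 4, 4 to 6 and 4 to 5 for control.

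Signs turned only for values not called in all 24 libraries, and the cause was not tested. At 6 h limma gave STAT3 -0.12. At 12 h STAT3 was -0.04 in the 22 libraries and -0.04 with the block. At 48 h limma gave IL10RB 0.18, JAK1 0.12, STAT3 0.02 and SOCS1 0.11, and the 22 libraries with the block gave SOCS1 0.02. For 12 minus 6 h IL10RB was 0 in the 22 libraries (0 with the block), and limma gave TYK2 0.01, STAT3 0.20 and SOCS3 0.22. For 24 minus 12 h IL6ST was 0.02 in the 22 libraries (0.02). For 48 minus 24 h IL10RA was 0 in only the groups compared and 0.28 by limma, and TYK2 was 0.03 by limma. For 48 minus 6 h TYK2 was 0 with DESeq2 size factors and -0.01 both with no filter and by DESeq2, and STAT3 was 0.14 by limma. For control at 12 h IL6ST was 0.07 (0.11 with the block). With 1 library left out, ranges that crossed 0 were, at 12 h, IL6 -0.16 to 0.23, IL10 -0.03 to 0.34, IL10RB -0.26 to 0.03, IL6ST -0.70 to 0.12, JAK1 -0.51 to 0.15 and STAT3 -0.32 to 0.29, and at 48 h IL6ST -0.12 to 0.11 and SOCS1 -0.12 to 0. For 12 minus 6 h they were IL10RB -0.12 to 0.17, IL6ST -0.31 to 0.52, JAK1 -0.22 to 0.44, STAT3 -0.37 to 0.24 and SOCS3 -0.49 to 0.04. For 24 minus 12 h they were IL10RA -0.02 to 0.43, IL6ST -0.43 to 0.39 and JAK1 -0.39 to 0.27. For 48 minus 24 h IL10RA ran from -0.04 to 0, and for 48 minus 6 h TYK2 from -0.05 to 0.02. In control IL6 ran from -0.31 to 0.41 at 12 h and from -0.67 to 0 at 48 h, and IL6ST from -0.73 to 0.07 at 12 h.

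The replicate numbers were not taken to pair the libraries: same-numbered control and DMF libraries correlated at -0.06 to 0.896 in their deviations, 3 of 12 pairs over 0.1, and 7 of 12 control libraries matched their own number best. The pairs over 0.1 were all of 12 h. There unlike numbers also correlated, control replicate 1 with DMF replicate 2 at 0.72 and control 2 with DMF 1 at 0.767. The departing replicate 3 libraries enter these deviations in both treatments. With the replicate block 6, 4, 5 and 3 members were called at the 4 times, 5 in the joint test, and 0, 3, 1 and 4 for the differences. Shares over all genes are not given here for the fit with the block, so these counts are no result about the members. Depth limits IL6, with 4 counts in the shallowest library, and SOCS1, with 6.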
